A study of Mus musculus with 12 samples.

Results

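The genes described here are 9 genes that mark pluripotent cells, chosen by name, with earlier results of these data known. They are the transcription factor genes Pou5f1, Sox2, Sall4 and Utf1, the RNA-binding protein gene Lin28a, and the developmental pluripotency associated genes Dppa2, Dppa3, Dppa4 and Dppa5a. All 9 were among the 26061 genes measured and among the 14185 that were expressed highly enough to be tested. They were read in 12 poly(A) RNA-seq libraries of mouse embryonic stem cells (ESCs) lacking Tet2. TET2 oxidises 5-methylcytosine, and stable PiggyBac lines carried either WT TET2 or a form with 2 substitutions in its catalytic centre (H1304Y and D1306A). Every library, in both lines, came from cells infected with a short hairpin RNA against the histone methyltransferase gene Setdb1, put under puromycin 48 h later and harvested following 3 days of that selection. Feeder-free cells were grown on gelatin with LIF, either in 2i, which adds inhibitors of MEK and GSK3 and is referred to as the naïve condition, or in serum, the primed condition. There were 3 libraries for each of the 4 groups: naïve WT, naïve mutant, primed WT and primed mutant. Expression of a transgene from a vector limits the lines as models of endogenous TET2. Libraries with a control hairpin were not analysed here, so no value below measures the response to SETDB1 loss.

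OCT4, the product of Pou5f1, binds DNA together with SOX2 at the enhancers of many pluripotency genes, among them its own, and SALL4, a zinc finger protein, acts in the same network. UTF1 is a chromatin protein of undifferentiated cells, and LIN28A binds the precursors of the let-7 microRNAs and blocks their maturation. DPPA2 and DPPA4 form a pair that binds chromatin through SAP domains and keeps developmental promoters free of DNA methylation. DPPA3, also called STELLA, counteracts the maintenance of DNA methylation by binding UHRF1, and DPPA5A is an RNA-binding protein with a KH domain.

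Gene reads per library ranged from 8066662 to 21335933 (median 11163986), and the first principal component (62.3% of the variance) separated the media. On it, replicate 3 of both naïve groups lay nearest to the primed libraries, with loadings of 0.23 (WT) and 0.22 (mutant) against 0.28 to 0.35 in the other naïve libraries, and replicate 3 of the primed mutant group lay nearest to the naïve ones (-0.20 against -0.33 to -0.28). Where a call of the 9 genes changed without such a library, the values with and without it are given. Setdb1 was read in all libraries (114 to 585 reads), and Tet2 had 1624 to 65641 reads, with a higher mean in the WT line in both media (WT minus mutant, 2.16 and 1.84 on the log2 scale; limma, adjusted p = 0.0154 and 0.0297, with ranges over the alternatives of 2.99e-06 to 0.132 and 2.65e-05 to 0.151). Tet2 was lower in naïve than in primed cells of the WT and mutant lines (-1.55 and -1.87; limma, adjusted p = 0.00207 and 0.000515). Construct and endogenous Tet2 reads were not separated. A summed level of 11 ESC markers, in normalised reads (counts divided by the library's size factor), was 46736 to 60900 in every library, which checks the labelled cell type. The sum does not show single markers as stable. By limma 3 were called higher and 4 lower in naïve WT cells (all tested genes, 18.6% and 17.3%). In naïve mutant cells 2 were higher and 5 lower (18.3% and 16.9%). Trophoblast markers summed to 46.4 to 135 normalised reads in naïve and 306 to 722 in primed libraries, with 8 of the 9 listed genes measured and no read of Gata3 or Elf5 in any naïve library. Fibroblast markers, which would show feeder cells, summed to 37.1 to 114 normalised reads, with Col1a2 and Col3a1 at 0 in every library.

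Levels of different genes were compared per kilobase of exon, scaled to the gene reads of each library (RPKM). In that unit Dppa5a was the highest of the 9 in all 4 groups, at 1961 ± 161 in naïve WT, 2760 ± 424 in naïve mutant, 1543 ± 176 in primed WT and 2069 ± 312 in primed mutant ESCs (SD, n = 3 each). Pou5f1 lay between 334 ± 27.6 (naïve WT) and 472 ± 120 (primed mutant), and Sox2 between 200 ± 14.1 (naïve mutant) and 235 ± 31.0 (primed WT). Lin28a was the lowest everywhere, at 6.83 ± 3.94 and 5.36 ± 3.17 in naïve WT and mutant cells and at 59.2 ± 4.58 and 57.5 ± 16.1 in primed WT and mutant cells. The order of the levels was spread out in naïve WT cells, where no neighbouring pair overlapped between libraries: Dppa5a, Dppa3, Pou5f1, Sox2, Utf1, Dppa4, Sall4, Dppa2 and Lin28a, from high to low. In naïve mutant cells the order was identical, and Dppa3 and Pou5f1 overlapped. In primed WT cells Utf1, Dppa3 and Sox2 overlapped with their neighbours (means of 302, 276 and 235), as did Dppa4, Dppa2 and Lin28a (63.8, 63.4 and 59.2). In primed mutant cells neighbours overlapped from Pou5f1 down to Sox2 and again from Dppa2 down to Lin28a. Together the 9 genes took 0.313% to 0.422% of gene reads in naïve and 0.384% to 0.477% in primed libraries.

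**Figure D1:**
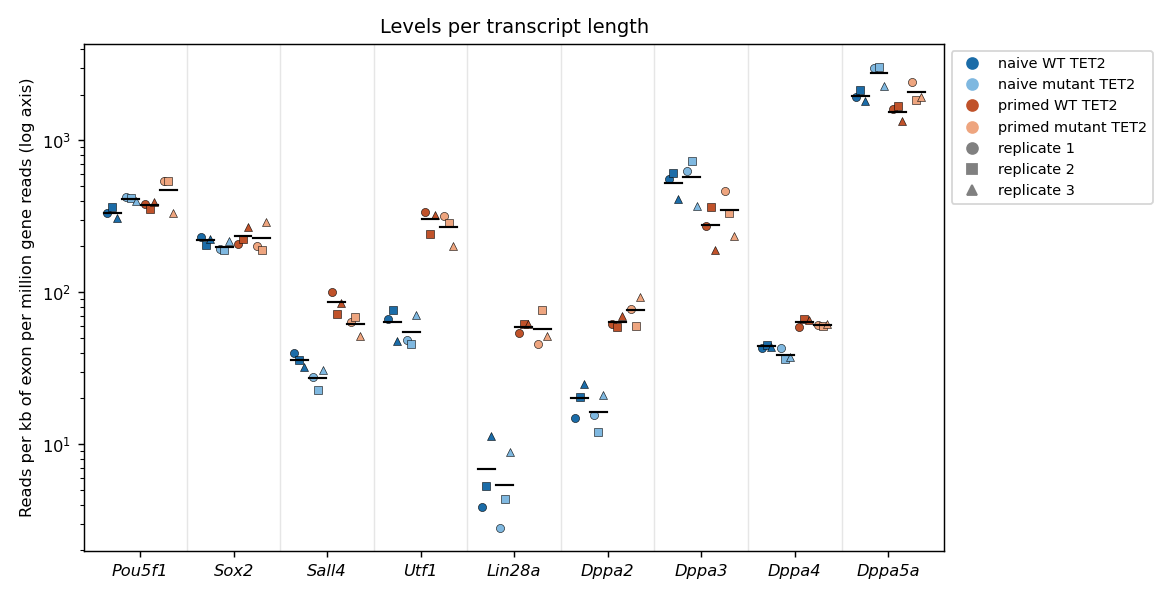
RPKM, scaled to gene reads (log axis), for the 9 genes, with 1 symbol per library, shaped by replicate and coloured by group, and a bar at each group mean. Dppa5a is highest in every group and Lin28a lowest, and Dppa4, Dppa2 and Lin28a lie apart in naïve WT cells (43.9, 20.1 and 6.83) and together in primed WT cells (63.8, 63.4 and 59.2).

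The first question was how these genes differed between naïve and primed cells within each rescue line. In the WT line 6 of 9 were called by limma at an adjusted p under 0.05, where 35.9% of all tested genes were called. Sall4, Utf1, Lin28a, Dppa2 and Dppa4 were lower in naïve cells (5 of 9, against 17.3% of tested genes lower) and Dppa3 was higher (1 of 9, against 18.6%). In the mutant line 5 of 9 were called, against 35.2% of all tested genes, all of them lower in naïve cells (against 16.9%), and none higher (against 18.3%). The same 5 genes were lower in both lines, which 12.4% of tested genes were. The median log2 difference, naïve minus primed, was -0.47 over the 9 genes and 0.01 over all tested genes in the WT line, and -0.64 and -0.01 in the mutant line. Without replicate 3 of both naïve groups, an alternative added after the data were seen, 6 of 9 and 7 of 9 were called. In that setting 4836 and 5199 of the 14185 tested genes were called. The calls gained in the mutant line, Dppa3 and Dppa5a, were higher in naïve cells (1.04 and 0.56). The share of all tested genes whose libraries did not overlap between media was not computed. Statements below on overlap between media therefore describe the libraries and show no trait particular to these genes. In bulk RNA, fewer cells with a transcript and less of the transcript per cell cannot be told apart.

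**Figure D2:**
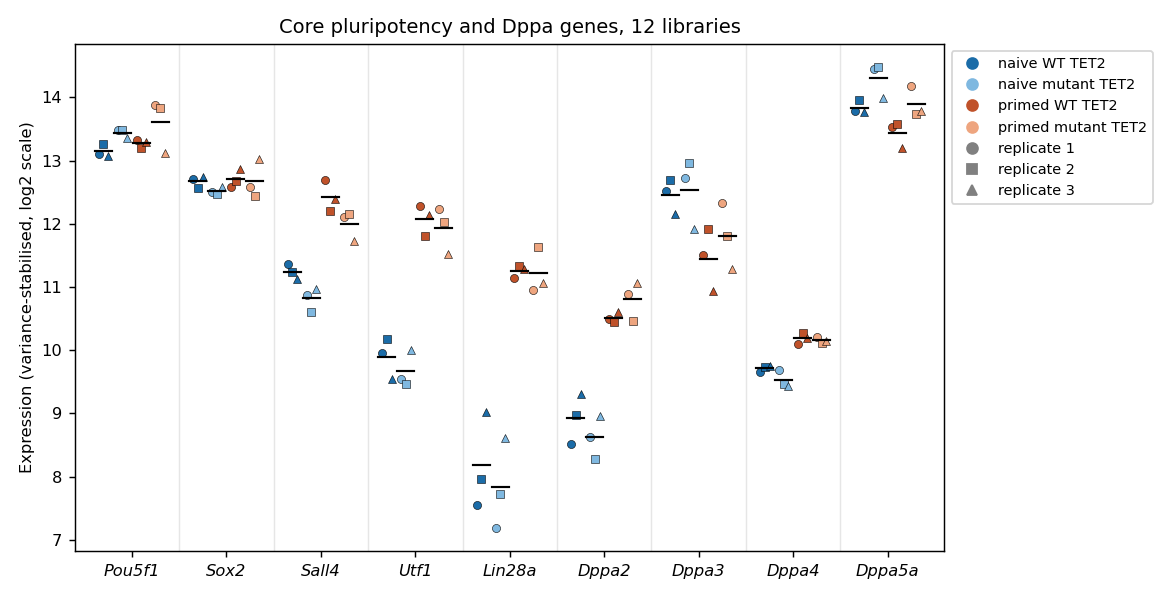
Expression of the 9 genes on the deposited log2 scale, with 1 symbol per library, shaped by replicate and coloured by group, and a bar at each group mean. Sall4, Utf1, Lin28a, Dppa2 and Dppa4 have every primed library above every naïve library, whereas Pou5f1 and Sox2 overlap between media. The share of all tested genes without such overlap was not computed.

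**Figure D3:**
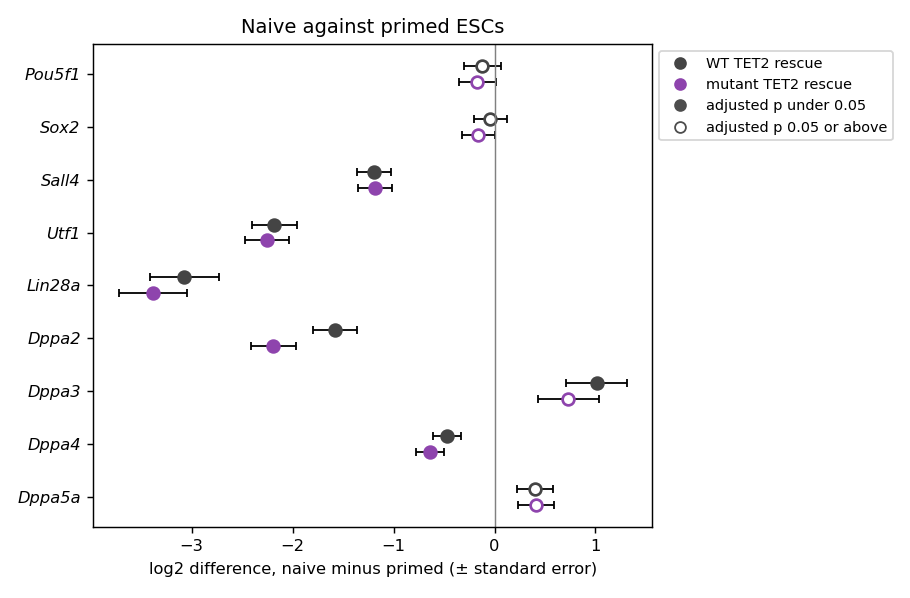
Log2 difference, naïve minus primed, for each gene with its standard error from limma, in the WT and the mutant rescue line. Filled circles have an adjusted p under 0.05 and open circles do not, so that Lin28a is filled in both lines (-3.07 and -3.38) and Dppa3 in the WT line (1.01) and not in the mutant line (0.73).

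Pou5f1, which spans chr17:35642982-35647721 on the plus strand of mm9, encodes OCT4 and was among the most abundant transcripts, with 6936 to 18932 reads per library. It had 8836, 9835 and 8580 normalised reads in naïve WT replicates 1 to 3 and 10205, 9392 and 10033 in primed WT replicates. The mutant line had 11509, 11431 and 10405 in naïve and 15042, 14500 and 8889 in primed replicates. The media overlapped in both lines, and replicate 3 of the primed mutant group was far below the other two. The log2 differences were -0.12 and -0.17 (standard error 0.18 each; limma, adjusted p = 0.634 and 0.508). Without replicate 3 of the primed mutant group the mutant line gave -0.41 (limma, adjusted p = 0.0408).

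Sox2 (chr3:34548927-34551383, plus strand), the partner of OCT4 on DNA, lies as a single exon inside the long noncoding transcript Sox2ot. Its normalised reads were 6651, 6060 and 6806 in naïve WT and 6105, 6540 and 7479 in primed WT replicates. They were 5756, 5659 and 6142 in naïve mutant and 6081, 5539 and 8357 in primed mutant replicates. The groups overlapped, and replicate 3 was the highest library in all 4 groups. The log2 differences were -0.04 and -0.16 (standard error 0.16 each; limma, adjusted p = 0.869 and 0.466). Sox2ot itself had 4 to 42 reads per library. It was lower in naïve cells (-0.60 and -0.71; limma, adjusted p = 0.0226 and 0.00901, with up to 0.0845 and 0.0463 over the alternatives).

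Sall4 (chr2:168573832-168593443, minus strand) encodes a zinc finger factor that interacts with OCT4. It had 2605, 2398 and 2208 normalised reads in naïve WT and 6571, 4714 and 5353 in primed WT replicates. The mutant line had 1857, 1530 and 1975 in naïve and 4374, 4507 and 3376 in primed replicates. Every primed library was above every naïve library of either line. Mean normalised reads were 2.31 times higher in primed WT and 2.29 times higher in primed mutant cells, with log2 differences of -1.19 and -1.18 (standard error 0.17 each; limma, adjusted p = 5.38e-05 and 6.20e-05). The noncoding Gm14261 overlaps a Sall4 exon on the opposite strand, and since the libraries kept no strand its reads cannot be separated from those of Sall4 there. Its own count was 2.23% to 4.15% of the Sall4 count. Gm14261 was also lower in naïve cells (-0.90 and -0.80; limma, adjusted p = 0.00857 and 0.0165, with up to 0.0376 and 0.108 over the alternatives). The nearest coding genes were not called in either line, at -0.39 and -0.01 for Atp9a and -0.33 and -0.23 for Zfp64.

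Utf1 (chr7:147129688-147131011, plus strand), a chromatin factor of undifferentiated cells, differed more. Naïve WT replicates had 958, 1128 and 722 normalised reads and primed WT replicates 4929, 3526 and 4479. Naïve mutant replicates had 716, 682 and 1006, and primed mutant replicates 4785, 4168 and 2910. The media did not overlap in either line. Primed means were 4.61 times (WT) and 4.94 times (mutant) the naïve means, with log2 differences of -2.18 and -2.25 (standard error 0.22 each; limma, adjusted p = 1.44e-06 and 1.13e-06). Kndc1, whose annotated end lies 2252 bp upstream, was lower in naïve cells too (-2.35 and -1.30; limma, adjusted p = 4.77e-08 and 2.13e-05). On the other side, 6430531B16Rik gave -0.54 and -0.45 and was not called (limma, adjusted p = 0.0861 and 0.151).

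Lin28a (chr4:133559245-133574756, minus strand), the let-7 regulator, had the largest difference of the 9, ranking 44th and 29th in size among all tested genes. In naïve WT cells it had 160, 224 and 491 normalised reads and in primed WT cells 2242, 2550 and 2458. In the mutant line it had 119, 186 and 362 in naïve and 1965, 3147 and 2127 in primed replicates. Within both naïve groups replicate 3 was the highest, by 1.26 (WT) and 1.14 (mutant) on the log2 scale over the mean of the other replicates, and still below every primed library. Primed means were 8.29 times (WT) and 10.9 times (mutant) the naïve means. The log2 differences were -3.07 and -3.38 (standard error 0.34 each; limma, adjusted p = 4.69e-06 and 1.82e-06), and -3.49 and -3.76 without replicate 3 of both naïve groups. Gm13061, a noncoding transcript over a Lin28a exon on the opposite strand, had at most 2.31% of the Lin28a count. With 0 to 78 reads per library, it was also lower in naïve cells (-1.35 and -1.75; limma, adjusted p = 0.000995 and 0.000119). Dhdds, the nearest coding gene, gave 0.43 and 0.39 and was not called (limma, adjusted p = 0.0577 and 0.0798).

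Promoter sequence is shown for the 4 of the 9 genes that have an entry among the RefSeq promoters used (GRCm38.p6), so that genes with and without a called difference between media can be set side by side: Lin28a and Utf1 were lower in naïve cells, and Pou5f1 and Sox2 were not called. Each run is 180 bases, ending 71 bases before the RefSeq start, and was placed on mm9 by an exact match. Capitals mark matches, on either strand, to the octamer ATGCAAAT bound by POU factors, the SOX-type motif CATTGTT and the GC box GGGCGG.
Lin28a, chr4:133574802-133574981, minus strand: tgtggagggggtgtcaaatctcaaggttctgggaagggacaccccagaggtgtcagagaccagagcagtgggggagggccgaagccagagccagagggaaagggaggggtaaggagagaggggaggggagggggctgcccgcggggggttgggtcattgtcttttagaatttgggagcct
Utf1, chr7:147129505-147129684, plus strand: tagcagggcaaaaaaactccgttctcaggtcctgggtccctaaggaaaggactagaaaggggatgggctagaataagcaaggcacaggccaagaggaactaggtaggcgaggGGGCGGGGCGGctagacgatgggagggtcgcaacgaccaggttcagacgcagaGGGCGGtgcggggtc
Pou5f1, chr17:35642727-35642906, plus strand: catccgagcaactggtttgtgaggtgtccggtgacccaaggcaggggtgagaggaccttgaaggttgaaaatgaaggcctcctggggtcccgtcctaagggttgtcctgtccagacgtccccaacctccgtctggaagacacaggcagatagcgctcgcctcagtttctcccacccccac
Sox2, chr3:34548667-34548846, plus strand: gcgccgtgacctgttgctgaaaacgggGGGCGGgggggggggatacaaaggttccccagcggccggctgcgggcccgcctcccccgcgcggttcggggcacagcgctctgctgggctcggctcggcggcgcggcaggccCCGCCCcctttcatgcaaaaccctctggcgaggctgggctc
GC boxes were found 3 times in the Utf1 run, with 2 of them overlapping, 2 times in the Sox2 run and 0 times in those of Lin28a and Pou5f1, and 21.1% of 32851 promoter windows of that length hold at least 1. The octamer (1.15% of windows) and the SOX-type motif (2.48%) matched none of these 4 runs, which says only that those letters are not in these windows. CpG dinucleotides numbered 20 in the Sox2 run, 10 in Utf1, 7 in Pou5f1 and 3 in Lin28a, where the median window has 4. Pou5f1 has another RefSeq start inside the gene, whose window of the same length (chr17:35645502-35645681) held 1 match to the SOX-type motif and no match to the others.

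Dppa2 and Dppa4 are neighbours on chromosome 16, in the same orientation with 16185 bp between them (Dppa4 at chr16:48283848-48294405, Dppa2 at chr16:48310590-48319836, plus strand). Dppa2 had 340, 477 and 604 normalised reads in naïve WT and 1417, 1366 and 1528 in primed WT replicates. The mutant line had 368, 283 and 471 in naïve and 1876, 1393 and 2127 in primed replicates. No naïve library reached the lowest primed one. Primed means were 3.03 times (WT) and 4.81 times (mutant) the naïve means, with log2 differences of -1.58 and -2.19 (standard error 0.22 each; limma, adjusted p = 3.81e-05 and 1.53e-06).

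Dppa4, which encodes the partner of DPPA2, moved in the same direction by less. Its normalised reads were 781, 825 and 832 in naïve WT and 1070, 1208 and 1145 in primed WT replicates. They were 791, 679 and 661 in naïve mutant and 1154, 1086 and 1112 in primed mutant replicates. The libraries of a group lay close together and the media did not overlap. Primed means were 1.40 times (WT) and 1.57 times (mutant) the naïve means, with log2 differences of -0.47 and -0.64 (standard error 0.14 each; limma, adjusted p = 0.0124 and 0.00188). The next gene past Dppa2, the germline gene Morc1, was higher in naïve cells, by 0.82 and 0.89 on the log2 scale (limma, adjusted p = 0.000843 and 0.000471). Gm7204, the nearest coding gene on the other side, gave 0.13 and -0.28 (limma, adjusted p = 0.637 and 0.278).

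Dppa3 (chr6:122576428-122580290, plus strand), which lies between Gdf3 and Nanog, was the only one of the 9 called higher in naïve cells, and only in the WT line. It had 5864, 6563 and 4541 normalised reads in naïve WT and 2874, 3845 and 1918 in primed WT replicates. In the mutant line it had 6738, 7958 and 3826 in naïve and 5124, 3528 and 2485 in primed replicates. The media did not overlap in the WT line and did overlap in the mutant line, where naïve replicate 3 lay below primed replicate 1. The naïve mean was 1.96 times (WT) and 1.66 times (mutant) the primed mean, with log2 differences of 1.01 and 0.73 (standard error 0.30 each; limma, adjusted p = 0.0145 and 0.0668). The difference between the lines in this response was not called (0.28, standard error 0.42; limma, adjusted p = 0.980). The WT call was lost without naïve WT replicate 2 (0.89; limma, adjusted p = 0.0543) and without primed WT replicate 3 (0.75; limma, adjusted p = 0.0885), and the mutant line gained it without naïve mutant replicate 3 (1.04; limma, adjusted p = 0.0127) and without primed mutant replicate 1 (0.99; limma, adjusted p = 0.0228). With any other single mutant library left out Dppa3 stayed uncalled, at its lowest without primed mutant replicate 3 (0.47; limma, adjusted p = 0.243). Nanog, next to Dppa3, differed by 0.57 and 0.40 (limma, adjusted p = 0.0357 and 0.137), and Gdf3 by -0.36 and -0.54 (limma, adjusted p = 0.0726 and 0.0110). Over the alternatives these calls of Nanog (WT line) and Gdf3 (mutant line) had adjusted p values from limma of 0.0147 to 0.146 and 0.00428 to 0.0609.

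Dppa5a (chr9:78214859-78215984, minus strand), the KH-domain gene, was the most abundant of the 9, with 8037 to 28393 reads per library. Its normalised reads were 14076, 15915 and 13948 in naïve WT and 11825, 12246 and 9399 in primed WT replicates. They were 22302, 22802 and 16291 in naïve mutant and 18573, 13595 and 14088 in primed mutant replicates. Naïve WT libraries were all above primed WT libraries, whereas the mutant groups overlapped. The naïve mean was 1.31 times (WT) and 1.33 times (mutant) the primed mean, with log2 differences of 0.40 and 0.41 (standard error 0.18 each), which were not called (limma, adjusted p = 0.0992 and 0.0952). The mutant line passed the threshold without naïve mutant replicate 3 (0.56; limma, adjusted p = 0.0300), without primed mutant replicate 1 (0.55; limma, adjusted p = 0.0437) and under quantile normalisation (0.41; limma, adjusted p = 0.0416). Dppa5b, a related gene elsewhere on chromosome 9, had counts of 14.1% to 17.4% of those of Dppa5a, and because multi-mapping reads were placed at random, the split of shared reads between these genes is uncertain. Dppa5b was itself higher in naïve cells, by 0.54 and 0.56 on the log2 scale (limma, adjusted p = 0.0305 and 0.0261, with ranges over the alternatives of 0.0175 to 0.156 and 0.00737 to 0.106). Ooep, the oocyte gene next to Dppa5a, gave 0.54 and 0.57 (limma, adjusted p = 0.0374 and 0.0303, with 0.00864 to 0.123 and 0.0132 to 0.202 over the alternatives).

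The second question was whether the genes differed between the WT and the mutant rescue within a medium. Tet2 RNA also differed between the lines, as given above, so its level and the catalytic change cannot be told apart here. The authors reported similar amounts of the WT and mutant proteins by Western blot. None of the 9 was called by limma or limma-voom in naïve or in primed cells, with 2 of 9 at an unadjusted p under 0.05 in each medium. Few genes of any kind were called (0.0987% of those tested in naïve and 0.254% in primed cells, 14 and 36 genes, with 1882 and 2295 at an unadjusted p under 0.05). Replicate numbers paired the naïve libraries, and with the replicate as a block 36 genes were called in naïve cells, none of them among the 9, whose smallest adjusted p from limma was then 0.147 (Dppa5a). Groups without overlap between lines were found for 3 of 9 in naïve cells (Pou5f1, Sall4 and Dppa5a), against 16.8% of tested genes, and for 2 of 9 in primed cells (Sall4 and Dppa5a), against 22.4%. The exact permutation test of 3 libraries against 3 cannot give a two-sided p below 0.1.

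Dppa5a was lower in all WT than in all mutant libraries of the same medium. Its naïve WT mean of 14646 ± 1101 normalised reads stood against 20465 ± 3624 in naïve mutant cells (SD, n = 3 each), and its primed WT mean of 11156 ± 1537 against 15419 ± 2743. The log2 differences, WT minus mutant, were -0.47 and -0.46 (standard error 0.18 each; limma, adjusted p = 0.314 and 0.251). Sall4 lay the other way, at 2404 ± 198 in naïve WT and 1787 ± 231 in naïve mutant cells, and at 5546 ± 943 in primed WT and 4086 ± 618 in primed mutant cells. Its log2 differences were 0.43 and 0.44 (standard error 0.17 each; limma, adjusted p = 0.314 and 0.241). Over the alternatives the Dppa5a difference was -0.62 to -0.38 in naïve and -0.54 to -0.29 in primed cells, and that of Sall4 0.32 to 0.56 and 0.31 to 0.55, with no call.

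Pou5f1 gave -0.29 in naïve and -0.34 in primed cells (standard error 0.18 each; limma, adjusted p = 0.491 and 0.373), without overlap in naïve cells only. In primed cells the mutant libraries lay on both sides of the WT libraries, at 15042, 14500 and 8889 normalised reads against 9392 to 10205. For Sox2, Utf1, Lin28a, Dppa3 and Dppa4 the difference between lines lay between -0.36 (Dppa3, primed) and 0.34 (Lin28a, naïve), and the libraries of the lines overlapped in both media. Dppa2 was the gene whose sign differed most between media, at 0.31 in naïve and -0.30 in primed cells (standard error 0.22 each; limma, adjusted p = 0.524 and 0.510).

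**Figure D4:**
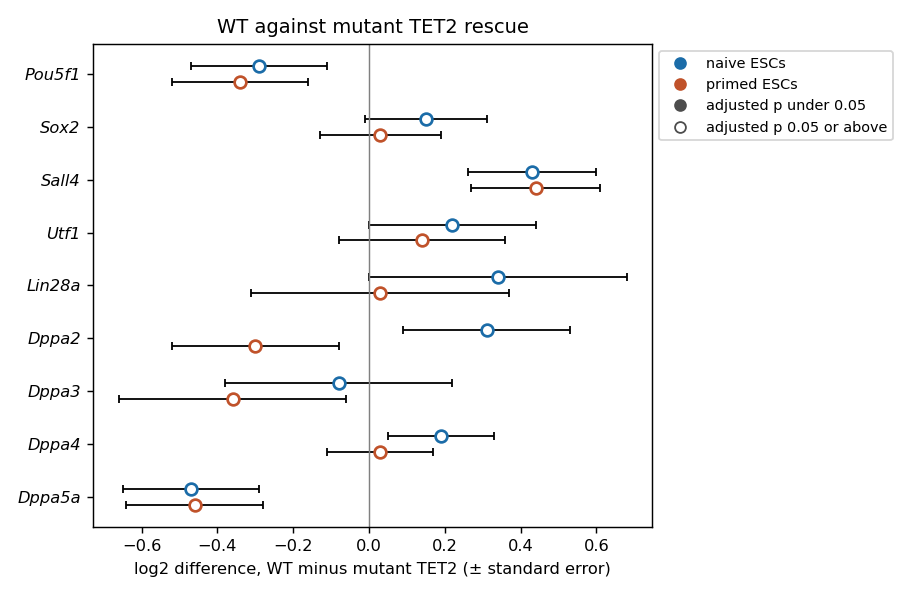
Log2 difference, WT minus mutant TET2, for each gene with its standard error from limma, in naïve and in primed cells. All circles are open, since no adjusted p was under 0.05, and Dppa5a (-0.47 and -0.46) and Sall4 (0.43 and 0.44) lie farthest from 0 in both media.

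The difference of these differences, the response to the medium in the WT line minus that in the mutant line, was tested as an interaction. No member and no other gene was called (0% of tested genes), and at an unadjusted p under 0.05 there were 0 of 9 members and 489 genes in all, by limma. Dppa2 had the largest value, 0.61 (standard error 0.30; limma, adjusted p = 0.976), and it stayed between 0.43 and 0.82 over the alternatives. Sall4 and Dppa5a were at -0.01 each (standard errors 0.24 and 0.26), and over the alternatives they ranged from -0.20 to 0.12 and from -0.17 to 0.08.

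Genes of the surrounding pathways were counted from lists chosen with earlier results of these data known, and their counts stand against 17.3% of all tested genes lower and 18.6% higher in naïve cells of the WT line, and 16.9% and 18.3% in the mutant line. Of 14 partner factors of OCT4 and SOX2, 10 were lower and 1 higher in naïve WT cells, and 11 were lower and 0 higher in naïve mutant cells, with medians of -0.82 and -0.87 against 0.01 and -0.01 over all genes. Among them was Otx2, a homeobox factor of the post-implantation epiblast (-2.75 and -3.29; limma, adjusted p = 4.79e-06 and 8.26e-07). Of 11 target genes of OCT4 and SOX2, 4 were higher and 2 lower in the WT line and 3 and 3 in the mutant line (all tested genes, 18.6% and 17.3%, and 18.3% and 16.9%). Among the 4 was Lefty1 (1.75, limma adjusted p = 0.0486), whose call was lost in 11 of 15 alternatives, with up to 0.187. Lefty2, an inhibitor of Nodal signalling, was higher in naïve cells (4.08 and 3.29; limma, adjusted p = 2.71e-06 and 2.44e-05), and the Ras-like gene Eras was lower (-3.38 and -3.25; limma, adjusted p = 2.06e-08 and 3.53e-08). Of the 9 measured naïve state factors of 10 listed, 3 were higher (Prdm14, Tcl1 and Klf5; all tested genes, 18.6% and 18.3%) and 1 lower (Zfp42; 17.3% and 16.9%) in each line, the last not without naïve WT replicate 1 (-0.65; limma, adjusted p = 0.0595).

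Around LIN28A, 3 of 14 genes were higher (all tested genes, 18.6%) and 4 lower (17.3%) in naïve WT cells, and 3 (18.3%) and 3 (16.9%) in naïve mutant cells, with medians of -0.05 and -0.23, so that these counts lay near the background. Dis3l2, the exonuclease that degrades uridylated let-7 precursors, was higher in naïve cells (1.33 and 1.51; limma, adjusted p = 0.000342 and 0.000110). The RNA-binding protein genes Igf2bp1 and Igf2bp3 went opposite ways, at -1.26 and -1.18 for Igf2bp1 and 1.18 and 1.14 for Igf2bp3, in the WT and mutant lines (all called by limma). Of the listed genes of the DNA methylation machinery, 3 of 7 were lower (all tested genes, 17.3% and 16.9%) and 0 higher (18.6% and 18.3%) in naïve cells of each line: Dnmt3l (-5.18 and -5.17; limma, adjusted p = 6.12e-10 and 8.62e-10), Dnmt3b (-2.21 and -2.45; limma, adjusted p = 1.55e-05 and 6.16e-06) and Dnmt3a (-0.91 and -1.30; limma, adjusted p = 0.00153 and 7.27e-05). The other 4 were not called in either line, and a link of these genes to DPPA3 was not tested. Of 11 listed targets of DPPA2 and DPPA4, 9 were measured and 6 tested, and 1 was higher (Trap1a, 0.58 and 0.45) and 1 lower (Syce1, -0.66 and -0.59) in naïve cells of each line, with adjusted p values from limma of up to 0.161 and 0.122 over the alternatives. These counts of 1 in 6 were near the shares of all tested genes, and are no result about the targets. Between rescue lines, 1 gene of all these lists was called by limma, Zscan4d of the 2-cell stage, lower in primed WT than in primed mutant cells (-1.99, adjusted p = 0.0336, with 0.000665 to 0.166 over the alternatives). The summed level of the 4 measured 2-cell markers of 6 listed was 49.4 to 114 normalised reads in WT and 165 to 912 in mutant libraries, and its part in the values of the 9 genes was not tested.

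Trophoblast markers moved with the medium, in the direction of the 5 genes that were lower in naïve cells: all 5 tested were lower in naïve WT and 4 of 5 in naïve mutant cells (medians of -2.30 and -1.52), against 17.3% and 16.9% of all tested genes. Genes entered the tests by their mean over all 12 libraries, so markers high in only 1 medium could enter through it. Gata3 entered through primed cells alone (7.17 in WT and 6.62 in mutant cells). In both naïve groups it was at 3.81, the lowest value. These marker counts are therefore in part set by the filter. Of the 5 tested primitive endoderm markers 2 were lower in naïve cells of both lines, Col4a1 (-2.17 and -1.27) and Dab2 (-1.47 and -0.85), and neither was called in the mutant line without naïve mutant replicate 2 (limma, adjusted p = 0.0862 and 0.0628). Dab2 also passed the filter only through primed cells (5.73 in WT and 5.29 in mutant cells). Its naïve means of 4.26 and 4.44 were less than 1 above the lowest value. Of 2 tested primitive streak markers Eomes was lower and Gsc higher in both lines (Gsc in the WT line at a limma adjusted p of 0.00236 to 0.0784 over the alternatives), and of 2 tested neuroectoderm markers Pax6 was lower in both (-1.39 and -1.37). Summed primitive endoderm markers were 334 to 870 normalised reads in naïve and 479 to 946 in primed libraries, those of the primitive streak 81.5 to 128 and 131 to 201, and those of neuroectoderm 633 to 1044 and 746 to 1136. The part of such cells in the differences of the 9 genes was not tested.

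For the 5 genes called in both lines, the genes with the most similar profile were found by the root mean square distance between values centred on each gene's mean, over 12 libraries. Slc39a14 was among the nearest to Lin28a (0.33 on the log2 scale), and Sall4 was nearest to Atg13 and Igf2bp1 (0.14 each). Utf1 was nearest to Plk3 (0.24) and Grb7 (0.26), Dppa2 to Wdr45 (0.17) and Ctnnal1 (0.19), and Dppa4 to Hn1l (0.07) and Riok1 (0.09). The distance is smaller for genes that vary little, as Dppa4 does.

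Within groups, libraries of the same condition differed in ways that some of the 9 genes shared. Deviations from the group means of Dppa3 and Dppa5a had a correlation of 0.91 over the 12 libraries, those of Sall4 and Utf1 of 0.81, and those of Pou5f1 and Sox2 of -0.87. These correlations were the largest in size among all pairs of the 9 genes, and the next was -0.66 (Sox2 and Dppa3). These are descriptions, since each point shares its library and its size factor between the genes, and group means were taken out of only 3 libraries each. Dppa3 was lowest in replicate 3 of all 4 groups, by 0.45 to 0.93 on the log2 scale under the mean of the other replicates. The opposite movement of Pou5f1 and Sox2 was largest in replicate 3 of the primed mutant group, which had 8889 normalised reads of Pou5f1 and 8357 of Sox2, against 14500 and 5539 in replicate 2. The correlation of Pou5f1 and Sox2 was not computed without replicate 3 of that group.

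**Figure D5:**
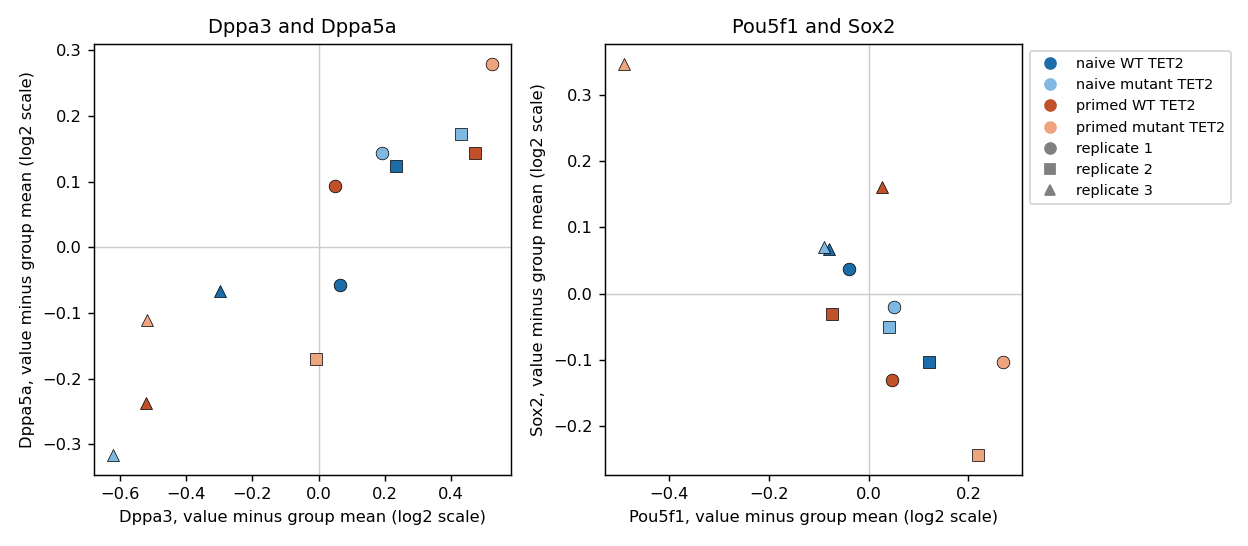
Each library's value minus its group mean on the log2 scale, with Dppa3 against Dppa5a on the left and Pou5f1 against Sox2 on the right, shaped by replicate and coloured by group. The left points rise together (r = 0.91, n = 12 libraries) with replicate 3 of every group at the low end of Dppa3, and the right points fall (r = -0.87, n = 12 libraries), with replicate 3 of the primed mutant group at the far upper left.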

How the data were processed

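Poly(A) RNA of 12 libraries was sequenced from non-directional preparations. According to the submitters' processing notes and the methods, reads were trimmed with Trim Galore 0.3.3, aligned to mm9 with TopHat2 2.0.9 with multi-mapping reads placed at random among their best positions, and counted per gene. The authors deposited DESeq2 variance-stabilised values on a log2 scale, which include size factors. The annotation used for counting is not given in the sources used here. The deposited repeat table was not used.

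The transformation was inverted, which returned whole reads for 100% of entries (tolerance 0.01) and so gave depths and normalised reads. Reads are not independent molecules, so these values alone give no measure of error. Groups came from the labels, which give no batch and do not say whether replicates are separate cultures, so p-values measure only the spread between these libraries. Genes entered the tests if they averaged 1 or more over the minimum of the table, 3.81. limma 3.58.1 in R 4.3.3 fitted 4 group means with an intensity trend, with Benjamini-Hochberg adjustment over 14185 genes, for 5 comparisons. The naïve and primed comparisons share libraries with those between lines. Fold values are ratios of mean normalised reads. Exon lengths and positions are those of GENCODE vM1, and all 9 genes were found. The fitting procedure was tested on simulated data.

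Alternatives were other filters, no trend, centring, quantile normalisation, limma-voom on the recovered counts, only the groups compared, a replicate block and single libraries left out. The 9 genes and all lists were chosen with earlier results of these data known. Named genes are the 9, up to 4 called genes per list with the largest differences, overlapping and nearest genes, and the 2 nearest profiles, of which 1 gene is not reported here. Same-numbered naïve libraries of the lines deviated together from their group means (correlations of 0.59, 0.30 and 0.39), which paired them, whereas no other comparison met the limit of 0.1 in every pair. Python 3.11.15, numpy 2.4.6, pandas 2.3.3, scipy 1.17.1 and matplotlib 3.10.9 were used.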

Additional observations from a re-analysis of the deposited data

How the results depend on the processing

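Of 711 values of the 9 genes recomputed under an alternative, 657 kept their direction and their side of the threshold, 43 changed sign, 9 passed the threshold and 2 fell under it. Sall4, Utf1, Lin28a, Dppa2 and Dppa4 remained called and lower in naïve cells of both lines under every alternative at an adjusted p under 0.05, and no gene of the 9 was called between rescue lines. The calls that changed were those of Dppa3, Dppa5a and Pou5f1 given above, and Dppa3 in the mutant line with a replicate block (0.73; limma, adjusted p = 0.00705) and without replicate 3 of both naïve groups (1.04; limma, adjusted p = 0.0114), where Dppa5a was also called (0.56; limma, adjusted p = 0.0309). In the naïve against primed comparisons the numbers did not pair the libraries (correlations of 0.22, 0.14 and -0.02 in the WT line and -0.05, -0.15 and -0.08 in the mutant line), nor in primed cells (0.16, -0.07 and 0.19).

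At an adjusted p under 0.01, limma called 3096 and 2989 genes between media in the WT and mutant lines, and 6 and 13 between lines in naïve and primed cells. The naïve count between lines was 9 with no filter, 5 with a stricter filter, 9 with only the groups compared, 36 with the replicate block, 6 without replicate 3 of both naïve groups, and 5 to 14 with single libraries left out. The primed count was 23 with a stricter filter, 18 with only the groups compared, 209 with the replicate block and 12 to 82 with single libraries left out, the most without mutant replicate 3. Of the primed calls 80.6% were higher in the WT line, and 67.5% and 67.4% after centring and quantile normalisation. The interaction called 0 to 1 genes with single libraries left out. The causes were not tested.

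Changes of sign were among differences that were not called. Between media, Sox2 ranged from -0.11 to 0.04 in the WT and from -0.28 to 0.01 in the mutant line with single libraries left out. Between lines the ranges were -0.39 to 0.14 for Dppa3 and -0.08 to 0.72 for Lin28a in naïve cells, and -0.09 to 0.20 for Sox2, -0.06 to 0.29 for Utf1, -0.10 to 0.24 for Lin28a and -0.01 to 0.07 for Dppa4 in primed cells. In the interaction they were -0.09 to 0.29 for Pou5f1, -0.05 to 0.24 for Sox2, -0.12 to 0.12 for Sall4, -0.08 to 0.28 for Utf1, -0.11 to 0.69 for Lin28a, -0.03 to 0.54 for Dppa3 and -0.16 to 0.08 for Dppa5a. Quantile normalisation gave interactions of -0.07 for Pou5f1 and -0.08 for Utf1, and Sall4 gave 0.12 without replicate 3 of both naïve groups. Depth limited Lin28a most among the 9, with 137 reads in its lowest library.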
